A study of Mus musculus with 6 samples.

Results

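Germline genes that are normally kept silent in somatic cells were examined on 6 expression arrays of mouse fibroblasts derived from embryonic stem cells. The list held 10 genes, Dppa3, Dazl, Ddx4, Mael, Sycp3, Sycp1, Tdrd1, Hormad1, Stag3 and Tex101, and a member was measured where a probe set carried its symbol and no other. Of these, 9 genes were measured by 10 of the 45141 probe sets, with 2 probe sets for Dazl and 1 for each of the others, and they stand among 17097 genes measured in all. For Sycp1, which encodes the transverse filament of the synaptonemal complex, 0 probe sets carried the symbol, so it has no expression value below. The groups were 3 arrays labelled WT and 3 labelled CD98hc KO, cells without the heavy chain of the CD98 amino acid transporters, and each group had replicates 1, 3 and 5. All cells were grown in high-glucose DMEM with serum, non-essential amino acids and β-mercaptoethanol. No sex, age or further allele is given in the sources used here, nor whether a line was 1 clone or whether replicates were separate cultures. The p-values therefore describe the spread between arrays, which may be technical.

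Genes of this kind serve germ cells. Their products package meiotic chromosomes, make piRNAs that silence transposons, or bind germ cell RNAs, and somatic cells shut them off through methylation of CpG-rich promoters and through repressive complexes that contain E2F6 or the MGA and MAX proteins. Embryonic stem cells transcribe some of them at low or variable levels, and primordial germ cells switch them on when their promoters lose methylation.

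The labels were checked first. Slc3a2, the gene that encodes CD98hc, measured 10.64, 10.67 and 10.51 (log2) under the WT label, against 11.65, 11.57 and 11.54 under the KO label, which goes against the label if its probe set lies in the deleted part of the gene, and its place is not known here. All directions therefore refer to the labels, KO over WT. The labelled cell type was also at odds with the KO-labelled arrays, where the collagen gene Col3a1 was at 4.36, 4.13 and 4.77 against 10.52, 11.49 and 11.92 on the WT-labelled arrays. Of 14 fibroblast markers 10 were lower and 1 higher under the KO label, by the test described below. Over all 17097 genes that test called 3291 lower and 3869 higher. The median log2 value of the fibroblast markers was 9.48 to 9.94 on the WT-labelled and 5.03 to 5.19 on the KO-labelled arrays. The pluripotency markers, all 11 of them, were higher, with a median of 4.65 to 4.94 under the WT label and 11.09 to 11.38 under the KO label, led by Zfp42 (log2 fold change 7.30), Pou5f1 (7.23) and Dppa5a (7.18). The germline differences below therefore come with this difference in cell state, and label and cell state cannot be told apart on these arrays. Nor can fewer cells of a type be told apart from less RNA per cell.

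Promoters are shown for 4 members, since they are the stretches on which silencing of these genes is known to act. Mael and Sycp3 were higher on the KO-labelled arrays and Hormad1 and Dazl did not pass the test. The windows are the 250 bases before the start site in RefSeq (GRCm38.p6), 5′ to 3′ on the strand of the gene. Capitals mark matches to CACGTG, the E-box letters that MGA and MAX bind, and to TCCCGC or its reverse complement GCGGGA, core letters of E2F sites. The motifs were searched on both strands and do not overlap each other.

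Mael (chr1:166238745-166238994, minus strand): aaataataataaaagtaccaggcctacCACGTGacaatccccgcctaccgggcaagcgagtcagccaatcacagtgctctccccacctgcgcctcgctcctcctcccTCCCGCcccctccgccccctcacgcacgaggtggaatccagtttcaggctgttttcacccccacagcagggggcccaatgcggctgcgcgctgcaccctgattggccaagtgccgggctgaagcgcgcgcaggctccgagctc
Sycp3 (chr10:88459337-88459586, plus strand): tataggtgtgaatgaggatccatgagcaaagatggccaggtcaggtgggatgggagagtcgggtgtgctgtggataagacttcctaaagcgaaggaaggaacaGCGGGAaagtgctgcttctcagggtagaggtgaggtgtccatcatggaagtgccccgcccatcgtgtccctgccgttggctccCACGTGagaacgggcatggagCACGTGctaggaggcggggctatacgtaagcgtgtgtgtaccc
Hormad1 (chr3:95559427-95559676, plus strand): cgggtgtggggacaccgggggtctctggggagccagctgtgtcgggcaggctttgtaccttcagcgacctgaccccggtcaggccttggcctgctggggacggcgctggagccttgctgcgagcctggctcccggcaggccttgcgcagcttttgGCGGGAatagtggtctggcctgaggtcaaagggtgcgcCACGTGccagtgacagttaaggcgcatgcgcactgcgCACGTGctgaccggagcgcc
Dazl (chr17:50293621-50293870, minus strand): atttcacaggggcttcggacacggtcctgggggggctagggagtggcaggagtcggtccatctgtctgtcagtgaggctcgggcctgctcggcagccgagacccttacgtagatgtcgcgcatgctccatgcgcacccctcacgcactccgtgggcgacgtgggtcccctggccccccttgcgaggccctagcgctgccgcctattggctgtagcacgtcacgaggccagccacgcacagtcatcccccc

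CACGTG was present in at least 1 window of 7 of the 9 members for which a window was at hand (Ddx4, Mael, Sycp3, Sycp1, Tdrd1, Hormad1 and Stag3), against 6.9% of 27025 genes with a promoter window. Among windows with at least 11 CpG, a density closer to that of the members, 9.6% held it. In Sycp3 the 2 matches began 64 and 43 bases before the start site, in Hormad1 57 and 20 bases before it, in Ddx4 29 and in Mael 223 bases before it. The E-box letters were in all 5 members that were higher on the KO-labelled arrays, and also in Hormad1, which did not pass the test. TCCCGC or its complement was in 4 of the 9 members (Ddx4, Mael, Sycp3 and Hormad1), against 18.8% of all genes and 38.6% of windows with at least 11 CpG. Its share was like that of the members (44.4%) in lists described below, with 13 of 26 genes of meiotic chromosomes, 46.2% of the silencing machinery and 41.2% of other methylated germ cell genes. For CACGTG the shares in these lists were 15.4%, 15.4% and 29.4%, and it was in 33.3% of piRNA pathway genes. The window of Tex101, like that of Dazl, held neither motif, and no window of Dppa3 was used. The windows of Ddx4 and Stag3 and 1 of the 3 of Tdrd1 lie wholly within the annotated span of their own gene, and the other 2 of Tdrd1, which hold CACGTG, overlap its start by 38 and 104 bases. A match is a description of letters and does not show that a factor binds.

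Of the 12 windows of the 9 members, 11 held more CpG than the median window. Dazl had 20, Ddx4 31, Mael 18, Stag3 26, Hormad1 19, Sycp1 17, Tex101 14 and Sycp3 12 CpG in 250 bases, while the median over 32851 windows was 6. The 3 windows of Tdrd1 differed, with 11, 22 and 3 CpG, and the last of them was below the median. The ratio of observed to expected CpG was 1.05 in Stag3 and exceeded that of 96.4% of all windows, Ddx4 exceeded 94.4%, and the ratio was 0.64 in Sycp3 and Tex101, with a median of 0.37 over all windows. The ratio did not separate members that were higher from those that did not pass, since Dazl (0.71) and Hormad1 (0.67) lay between Sycp3 (0.64) and Mael (0.75).

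On the arrays, 5 of the 9 measured members were higher under the KO label at an adjusted p under 0.05 (limma, adjusted over 17097 genes) and 0 were lower, while 4 did not pass. Over all genes 22.6% were called higher, and 41.9% were called in either direction. The 5 were Mael, Ddx4, Sycp3, Stag3 and Tdrd1. The change was over 2-fold for 4 of them, where 9.27% of all genes were called higher by over 2-fold. The median log2 fold change of the 9 members was 0.65, and that of all genes 0.02. For 6 members all 3 KO-labelled arrays lay above all 3 WT-labelled arrays, as they did for 28.1% of all genes. Counted by probe set and adjusted over all of them, 5 of 10 were higher, against 16.8% of probe sets. With 3 arrays a label, the smallest p that exact permutation allows is 0.1.

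**Figure D1:**
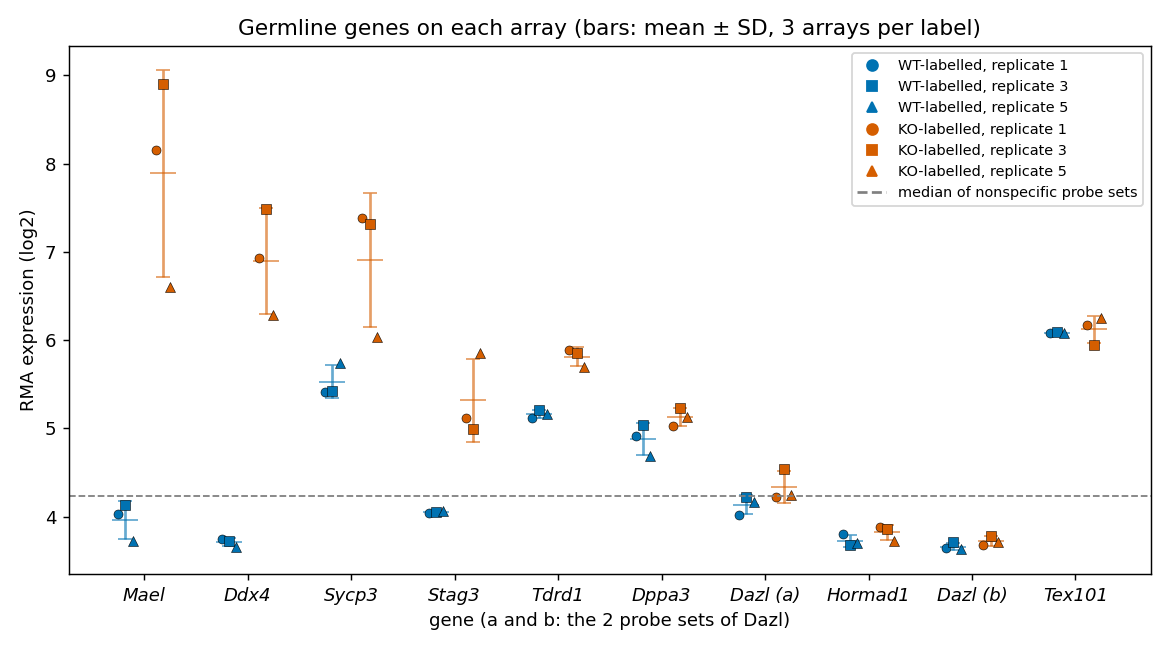
RMA expression (log2) of each germline probe set on each array, with WT-labelled arrays in blue and KO-labelled arrays in orange, a symbol for each replicate number, bars for mean ± SD (n = 3 arrays) and the median of the nonspecific background probe sets dashed. Mael, Ddx4 and Stag3 lie below the line on all WT-labelled arrays and above it on all KO-labelled arrays, while Dazl and Hormad1 stay near or below it under both labels.

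No detection calls were used, so the level under each label was set beside the 23 probe sets for nonspecific background, which match no mouse transcript and differ in GC content. On the 6 arrays their lowest value was 3.26 to 3.32, their median 4.17 to 4.27 and their highest 8.08 to 8.54. Their own difference between the labels had a median of 0.02 on the log2 scale and ran from −0.03 to 0.27, and 0 of 23 passed. Of the 9 members, 4 (Sycp3, Tdrd1, Dppa3 and Tex101) were above the median of these probe sets on all 3 WT-labelled arrays, and 7 on all 3 KO-labelled arrays, the same 4 with Mael, Ddx4 and Stag3. A value above that median does not show that a gene is transcribed, since GC-rich probes give a higher background, and none of the 9 exceeded the highest nonspecific probe set on all arrays of a label. Mael, Ddx4 and Stag3 were below the median on every WT-labelled array, so their log2 fold changes start from values within background. No limit of detection was set, so no bound on the true change is given.

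Among the genes of the piRNA pathway, Mael had the largest fitted change of the list. Mael encodes Maelstrom, a protein of the germ granule needed for transposon silencing, and had log2 values of 4.03, 4.13 and 3.72 on WT-labelled replicates 1, 3 and 5, against 8.15, 8.91 and 6.61 on KO-labelled replicates 1, 3 and 5. The groups lay far apart, and KO-labelled replicate 5 was the lowest of its group. The log2 fold change was 3.93 (standard error, SE, 0.55, limma adjusted p = 0.0016). Under the WT label Mael was above 10, 11 and 9 of the 23 nonspecific probe sets, and under the KO label above 22, 23 and 18 of them.

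Tdrd1, a Tudor domain protein that binds PIWI proteins, changed less but with little spread. It had log2 values of 5.12, 5.21 and 5.16 on WT-labelled arrays, against 5.89, 5.86 and 5.69 on KO-labelled arrays. No value of one label reached into the other, and the log2 fold change was 0.65 (SE 0.08, limma adjusted p = 0.00087), a 1.57-fold difference. Its level relative to the nonspecific median moved from 0.94 to 1.57 above it, so both labels lay within the range of background.

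Ddx4, also known as mouse vasa homologue, is an RNA helicase that marks germ cells from their arrival in the gonad. It had log2 values of 3.75, 3.72 and 3.66 on the WT-labelled arrays, below the nonspecific median on each. On the KO-labelled arrays it had 6.93, 7.48 and 6.28, again with replicate 5 lowest. The log2 fold change was 3.19 (SE 0.28, limma adjusted p = 0.00023), with a lower 95% confidence limit of 2.51.

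Of the measured genes of meiotic chromosomes, Sycp3 and Stag3 were higher and Hormad1 did not pass. Sycp3 encodes a component of the axis of meiotic chromosomes, and had 5.42, 5.43 and 5.74 under the WT label, against 7.38, 7.31 and 6.03 under the KO label. KO-labelled replicates 1 and 3 were well above the WT-labelled arrays, and replicate 5 was only slightly above the highest of them. The log2 fold change was 1.38 (SE 0.36, limma adjusted p = 0.022). This call depended on single arrays, with an adjusted p of 0.069 without WT replicate 1, 0.073 without WT replicate 3, 0.067 without KO replicate 1 and 0.063 without KO replicate 3. Without KO replicate 5 the log2 fold change was 1.82 (adjusted p = 0.00034).

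Stag3, a cohesin subunit of meiotic chromosomes, had 4.04, 4.05 and 4.06 under the WT label, a range of 0.02, against 5.11, 4.99 and 5.85 under the KO label. Here KO-labelled replicate 5 was the highest array, the reverse of its place for Mael, Ddx4 and Sycp3. The log2 fold change was 1.27 (SE 0.22, limma adjusted p = 0.0043). Hormad1, a HORMA domain protein that monitors synapsis, had 3.80, 3.68 and 3.70 under the WT label, against 3.88, 3.86 and 3.73 under the KO label. The labels overlapped, all 6 values lay below the nonspecific median, and the difference was 0.10 (95% confidence interval −0.09 to 0.28, adjusted p = 0.37 from limma).

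Dazl, an RNA-binding protein that licenses germ cells for gamete formation, was measured by 2 probe sets. The more variable of them had 4.01, 4.22 and 4.17 under the WT label, against 4.22, 4.54 and 4.24 under the KO label. The KO-labelled arrays were above the WT-labelled arrays by a small margin, with a log2 fold change of 0.20 (95% confidence interval −0.07 to 0.47) that did not pass (adjusted p = 0.21 from limma). The other had 3.64, 3.71 and 3.63 against 3.67, 3.78 and 3.72, a difference of 0.06 (95% confidence interval −0.10 to 0.22), and stayed below the nonspecific median on every array.

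Dppa3, also called Stella, is a maternal and primordial germ cell protein that protects DNA methylation in the zygote and is transcribed in a part of embryonic stem cells. It had 4.91, 5.04 and 4.69 under the WT label, against 5.02, 5.23 and 5.13 under the KO label. The labels overlapped, and the difference of 0.24 (95% confidence interval −0.02 to 0.51) did not pass (adjusted p = 0.13 from limma). On the same arrays Dppa2, an activator of germline and early embryonic genes, had 4.12, 3.88 and 4.12 against 11.38, 11.53 and 11.11. Dppa3 was above 13 to 14 of the 23 nonspecific probe sets on each array. Tex101, a surface protein of germ cells needed for sperm fertility, had 6.08, 6.09 and 6.08 under the WT label, against 6.17, 5.95 and 6.25 under the KO label. The difference of 0.036 (95% confidence interval −0.19 to 0.26, adjusted p = 0.81 from limma) had no settled sign, and became −0.041 when each array was centred on its median.

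**Figure D2:**
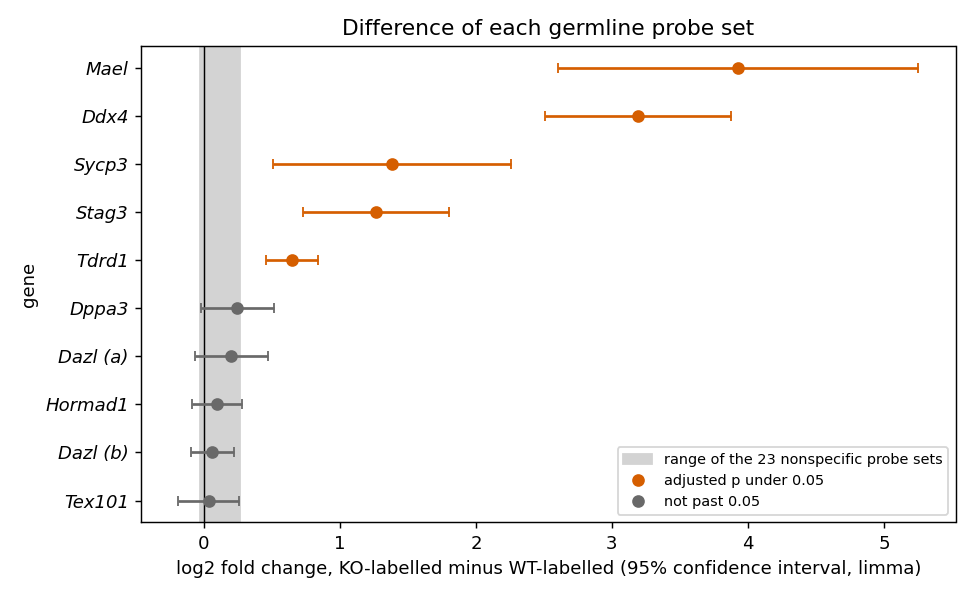
Log2 fold change of each germline probe set (arrays labelled KO minus WT, with 95% confidence interval from limma), in orange where the adjusted p over all probe sets was under 0.05, with the range of the 23 nonspecific background probe sets in grey. The intervals of Mael, Ddx4, Sycp3, Stag3 and Tdrd1 lie above the grey band, and those of the other probe sets overlap it.

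Of the 5 members that rose, 4 varied widely over the KO-labelled arrays and Tdrd1 did not. For Mael the 3 arrays spanned 2.30 on the log2 scale, for Sycp3 1.35, for Ddx4 1.20 and for Stag3 0.87, against 0.20 for Tdrd1. The span of Mael was wider than that of 99.9% of all genes and that of Sycp3 wider than 98.9%, while that of Tdrd1 was wider than 36.9%. Relative to the mean of KO-labelled replicates 1 and 3, replicate 5 was at −1.93 for Mael, −1.31 for Sycp3, −0.93 for Ddx4 and −0.18 for Tdrd1, and at 0.80 for Stag3. Over all genes 41 were lower on replicate 5 than on both other KO-labelled arrays by over 1 on the log2 scale, Mael and Sycp3 among them. In this way 39 stood out on replicate 3 and 16 on replicate 1. The 1585 genes called higher by over 2-fold made up 29 of the 41, 18 of the 39 and 7 of the 16.

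Replicate 5 was the lowest KO-labelled array for 5 of the 9 measured members, against 32.3% of all genes and 32.8% of those called higher. Of the 27 measured genes of the silencing list, 9 were lowest on replicate 5 and 11 on replicate 3. The 9 included Dnmt3a, Dnmt3b and Dnmt3l, which establish DNA methylation (Dnmt3l as a cofactor without catalytic activity). Dnmt3b had 11.02, 11.83 and 10.47 on KO-labelled replicates 1, 3 and 5, Dnmt3l had 9.66, 9.33 and 8.05, and Dnmt3a 10.99, 10.89 and 9.77. Dnmt1, Uhrf1 and Tet2 were instead lowest on replicate 3, with 10.86, 10.95 and 9.62 there. Of the 11 pluripotency markers 6 were lowest on replicate 1, 3 on replicate 3 and 2 (18.2%, against 32.3% of all genes) on replicate 5. Those 2 were Utf1 (11.43, 11.04 and 10.98) and Sall4 (11.40, 11.71 and 11.38). Other markers were highest on replicate 5, such as Tfcp2l1 (8.51, 7.24 and 9.89) and Klf4 (10.61, 10.93 and 11.63). The Dnmt3 genes and the pluripotency markers named here were picked out after their values were seen. The order rests on 3 arrays, and no relation between these genes was tested.

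**Figure D3:**
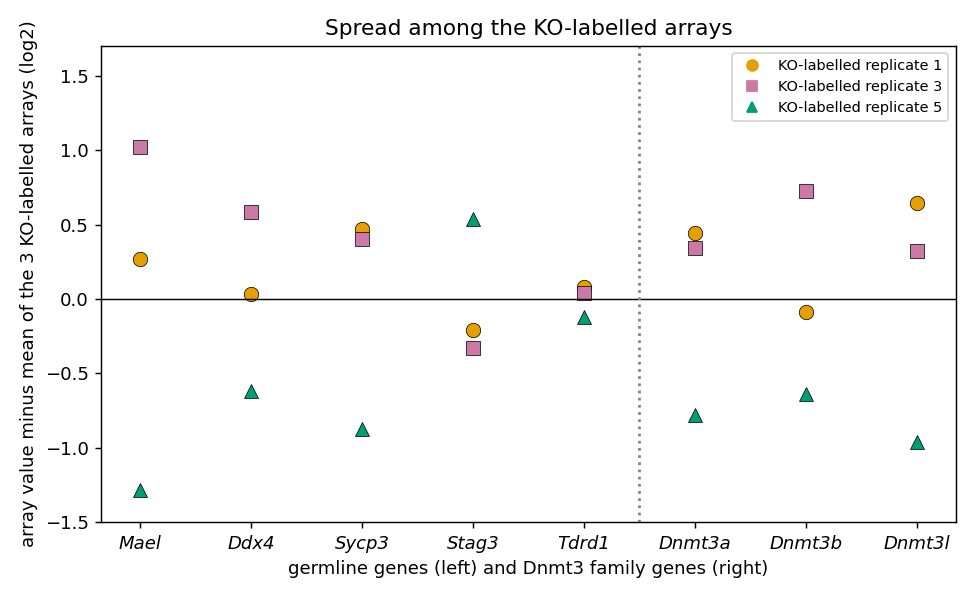
Value of each KO-labelled array minus the mean of the 3 KO-labelled arrays (log2), for the 5 germline genes that were higher under the KO label and, right of the dotted line, for Dnmt3a, Dnmt3b and Dnmt3l. Replicate 5 is the lowest array for each gene shown but Stag3, where it is the highest.

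The wider set of germline genes was divided as well. Of 11 measured genes of primordial germ cells, many of them also used by pluripotent cells, 10 were higher and 1 lower (90.9% higher, against 22.6% of all genes), with a median log2 fold change of 4.18. Dppa2 (7.30, SE 0.13, limma adjusted p = 6.4e-07), Dppa5a (7.18) and Ifitm1 (5.16), an interferon-induced membrane protein of early germ cells, led the group. Of 16 measured genes of the piRNA pathway, 8 were higher, 1 was lower and 7 did not pass, with a median of 0.24, where 22.6% of all genes were higher and 41.9% called in either direction. Rnf17, a Tudor protein of germ cells, had 4.14, 4.08 and 4.24 against 7.09, 6.87 and 6.68 (log2 fold change 2.72, adjusted p = 1.3e-05 from limma). Tdrd7, which somatic tissue such as the lens also uses, ran the other way with −2.39.

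Of 29 measured genes of the meiotic axis, synapsis and recombination, 11 were higher, 0 lower and 18 did not pass, and the median was 0.19. The share called higher was 37.9%, against 22.6% of all genes, and the share called in either direction, also 37.9%, was below the 41.9% of all genes. By over 2-fold 7 of the 29 were higher, against 9.27% of all genes. Of those called higher, Mei4 averaged 3.47 and 3.80, below the nonspecific median under both labels. Stra8 (0.27) and Brdt (0.24) rose no more than the largest difference of the nonspecific probe sets (0.27). With each array centred on its median, 8 of the 29 were higher and 2 lower, where 3299 of all genes were higher and 3814 lower. Ccnb1ip1, a regulator of crossovers, had a log2 fold change of 4.61 (SE 0.15, limma adjusted p = 4.3e-06) and Syce2, of the central element of the synaptonemal complex, one of 3.67. Meioc, which keeps cells in meiotic prophase, had 3.89, 3.73 and 4.05 under the WT label, against 5.46, 7.09 and 5.00 under the KO label (log2 fold change 1.96, adjusted p = 0.022 from limma), and no longer passed without WT replicate 1 (adjusted p = 0.061) or WT replicate 3 (adjusted p = 0.073). It too was lowest on KO-labelled replicate 5 and highest on replicate 3.

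Of 15 other germ cell genes known for promoter methylation or for repression by E2F6 and its complex, 8 were higher, 0 lower and 7 did not pass (53.3% higher, against 22.6% of all genes), with a median of 0.24. By over 2-fold 3 of the 15 were higher, against 9.27% of all genes. Of those called higher, Stk31 averaged 3.74 and 4.13, below the nonspecific median under both labels, and Brdt rose by only 0.24. With each array centred on its median, 6 of the 15 were higher and 0 lower, where 3299 of all genes were higher and 3814 lower. Tex15, which acts in meiotic recombination and transposon silencing, had a log2 fold change of 1.61, Tex19.1, which restrains transposons, one of 1.41, and Tex14, of germ cell bridges, one of 1.33. The piRNA and methylated lists share Tex15, Tex19.1 and other genes, and the meiotic and methylated lists share Brdt and Smc1b. Dppa5a is on both the primordial germ cell and the pluripotency list, so the counts of these lists are not independent.

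Few genes of late germ cells passed the test. Of 22 measured genes of late spermatogenesis, 1 was higher (Tssk6, 0.28) and 1 lower (Hspa1l, −0.49), with a median of 0.04. The median level of the list was 4.97 to 5.05 under the WT label and 4.95 to 5.04 under the KO label. The rise of Tssk6 was close to the largest nonspecific difference (0.27). Hspa1l (limma adjusted p = 0.046) no longer passed without WT replicate 1 (adjusted p = 0.101) or WT replicate 3 (adjusted p = 0.118). Of 21 oocyte genes 3 (14.3%) were higher and 0 lower, with a median of 0.07. Ooep, of the maternal complex beneath the oocyte membrane, had a log2 fold change of 3.42 (adjusted p = 8.1e-05 from limma), Sohlh2 0.61 and Zp3 0.61. Of 15 genes of the somatic gonad 4 were higher and 2 lower, near the shares over all genes (26.7% higher against 22.6%, and 40.0% in either direction against 41.9%), among them Aard (5.01) and the steroid enzyme gene Cyp11a1 (3.34), and Sox9 with −5.17.

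**Figure D4:**
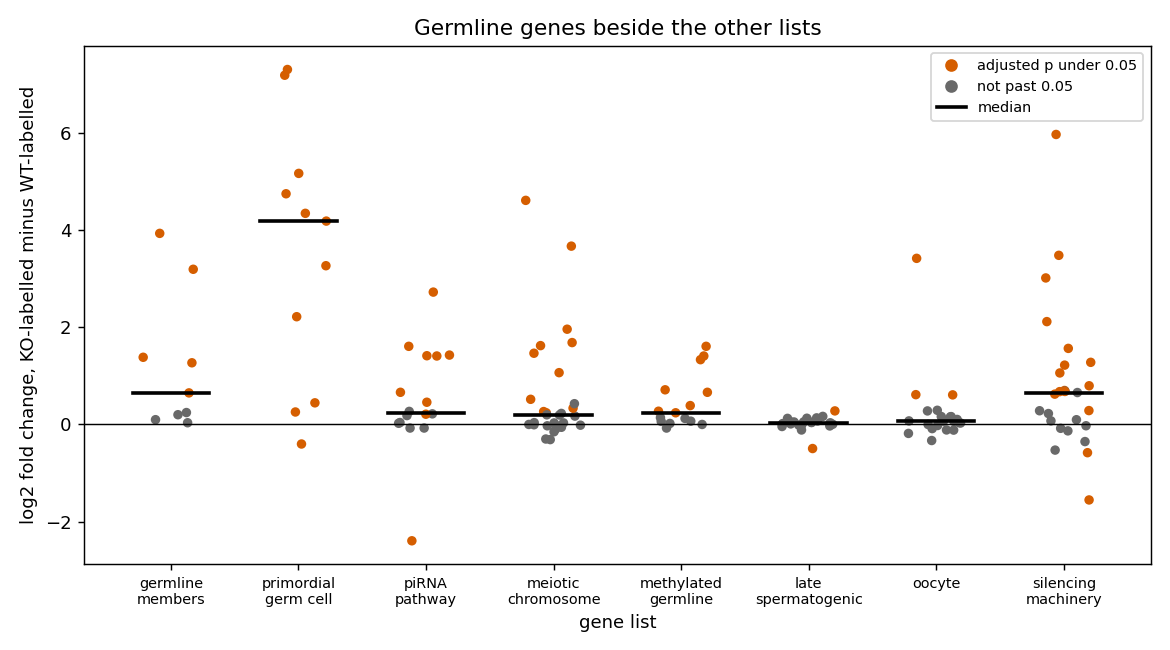
Log2 fold change (arrays labelled KO minus WT) of every measured gene of 8 lists, orange where limma gave an adjusted p under 0.05, and a black bar for each median. The germline members have a median of 0.65, the primordial germ cell genes 4.18 and the late spermatogenic genes 0.04.

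A list of the machinery that silences germline genes also held Tet2 and Tet3, which act against DNA methylation. Its 27 measured genes had a median log2 fold change of 0.66. Of these, 14 were higher under the KO label, Tet2 among them, and 2 lower, Tet3 (−0.58) among them. That is 59.3% in either direction, against 41.9% of all genes. Dnmt3b averaged 5.14 ± 0.06 (log2, SD, n = 3) under the WT label and 11.11 ± 0.69 under the KO label, a difference of 5.96 (SE 0.32, limma adjusted p = 3.2e-05), Tet2, which oxidises methylated cytosine, by 3.48, Dnmt3l by 3.01 and Dnmt3a by 2.11. For Dnmt3a the mean of its probe sets gave 0.90 (adjusted p = 0.076). Dnmt1, which copies methylation at replication, had a difference of 0.22 that did not pass (adjusted p = 0.19 from limma), and its partner Uhrf1 rose by 0.68 (adjusted p = 0.0024 from limma).

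Of the repressors in the complex of E2F6 and MGA, Mga rose by 1.22 (adjusted p = 0.0092 from limma), L3mbtl2 by 1.28 (adjusted p = 0.00016) and Rybp by 1.56 (adjusted p = 0.00048), while Yaf2, a homologue of Rybp, fell by 1.55 (adjusted p = 0.0021). L3mbtl2, Rybp and Yaf2 were named after their values were seen. E2f6 had 8.50, 8.30 and 8.65 under the WT label, against 8.16, 7.48 and 8.23 under the KO label, a difference of −0.53 that did not pass (adjusted p = 0.097 from limma), and Pcgf6, which is specific to the E2F6 complex, one of 0.68 (adjusted p = 0.098). E2f6 passed in 6 alternatives, among them quantile normalisation (−0.68, adjusted p = 0.00935), and Pcgf6 in 5, among them its brightest probe set (0.76, adjusted p = 0.0052). The part of these genes, or of promoter methylation, in the germline differences was not tested, and methylation was not measured on these arrays.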

How the data were processed

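Gene expression was measured on Affymetrix mouse arrays, 3 labelled WT and 3 labelled CD98hc KO. Arrays were normalised to each other by the authors, who summarised each probe set by RMA, and the deposited values are on the log2 scale (per the labels, RMA with no version, and per the methods background correction and summarisation in affyPLM). All 6 columns were used as deposited. Precision is limited by having 3 arrays a label. Pearson's correlation between arrays was 0.991 to 0.994 within labels and 0.911 to 0.92 between them.

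Probe sets were named from the platform annotation: of 45141, 28898 had 1 symbol, 551 several and 15692 were unnamed here, and 104 were array controls. Where a gene had several probe sets, the most variable stood for it. Differences (KO-labelled minus WT-labelled) were tested by lmFit with eBayes (limma 3.58.1, R 4.3.3), with Benjamini-Hochberg adjustment over 17097 genes, or over all probe sets but controls for single probe sets, and called at an adjusted p under 0.05. The methods' model has scan batch as covariate, but the labels do not name it, so none was used. Scripts were tested on simulated data. Motif and CpG counts came from RefSeq promoter windows with Python 3.11.15, and figures from matplotlib 3.10.9.

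The members and lists were chosen with earlier results of these data known. Beside all members, the rule for naming took Slc3a2 and up to 3 genes of each list with the largest called change. Of the silencing list it also took Dnmt1, Dnmt3a, Dnmt3b, Dnmt3l, Uhrf1, E2f6, Mga and Pcgf6. Other genes were named after their values were seen, among them L3mbtl2, Rybp, Yaf2, Tet3, Utf1, Sall4, Tfcp2l1, Klf4, Mei4, Stra8 and Stk31. Alternatives covered the replicate block, replicate 3 as a covariate, subsets of arrays, the probe set, normalisation, the variance prior, dim probe sets and the fold limit.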

Additional observations from a re-analysis of the deposited data

How the results depend on the processing

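The count of 5 members higher and 0 lower was 4 to 5 higher and 0 lower under every alternative run (4 higher within the 4 arrays of replicates 1 and 5 and 4 to 5 without each array in turn). Mael, Ddx4, Stag3 and Tdrd1 had a limma adjusted p under 0.05 in all 18 alternatives. Their log2 fold changes were 3.42 to 4.57, 2.90 to 3.50, 1.0 to 1.43 and 0.57 to 0.71. Tdrd1 was not called with the fold limit of 2, since its change was 1.57-fold, and 4 members were higher there. Sycp3 passed in 13 of 18 (1.13 to 1.82), and missed when replicate 3 was left out under both labels (1.13, limma adjusted p = 0.163) and without single arrays, as given above. Dazl, Dppa3, Hormad1 and Tex101 passed in none. Tex101 changed sign with quantile normalisation (−0.0292), with centring on the array median (−0.041) and when single arrays were left out (−0.0279 without KO replicate 5 to 0.123 without KO replicate 3). Set against the highest nonspecific probe set instead of the median, 0 members lay above it on all 3 arrays of either label, where the median gave 4 and 7. The replicate 3 arrays had a mean of 8.99 and 9.05 over 9 hybridisation controls, and the other arrays 10.22 to 10.34. Deviations from the group means correlated over genes at 0.04, 0.58 and 0.15 between same-numbered arrays of replicates 1, 3 and 5. Deviations within 3 arrays are bound to cancel out, so these values cannot tell whether the number pairs the arrays. With the replicate block 5 members were higher and 0 lower (all genes 4272 higher and 3606 lower, against 3869 and 3291). With a fold limit of 2, 1585 genes were higher and 1733 lower. Adjusted over every probe set, 7564 probe sets were higher and 7187 lower. Without detection calls, low values such as those of Dazl and Hormad1 give no bound on transcription.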
